A study of Arabidopsis thaliana with 4 samples.

Results

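The primary microRNA transcripts of Arabidopsis thaliana are the long RNAs from which microRNA hairpins are cut, and their reads were followed through an RNA immunoprecipitation of MTA. The members were all loci with an entry described as a MIR gene in the deposited quantification, together with the hairpin precursor entry of the same locus. This rule gave 53 loci, each with 1 transcript model and 1 precursor, of 32548 nuclear and MIR loci and 55524 entries in all. The 53 loci fell into 33 families by name, 19 of them with a single locus here. A further 272 loci had a precursor entry and no model. Loci are named below by the symbols of the files, with their locus identifiers.

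RNA came from nuclear fractions of leaves of Col-0 plants aged 4 weeks, crosslinked with 0.1% formaldehyde, and the capture used GFP-Trap beads, which hold proteins fused to GFP. Each of 4 groups held 1 library: the immunoprecipitate (IP) of MTA-GFP plants, the input (nuclear RNA before capture) of MTA-GFP plants, the IP of a control line and the input of the control line. Its titles name the control plants GFP, whereas the genotype entry reads CFP, so they are called the control line here. The promoter of the MTA-GFP transgene, the state of the endogenous MTA gene and the number of plants or lines pooled were not given in the sources used here. With 1 library in each group no difference has a replicate check and no p-value is given. All intervals cover counting error only, and reads amplified by PCR are not independent molecules.

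MTA is the methyltransferase that places N6-methyladenosine (m6A), the main internal mark of messenger RNA, within a larger writer complex. MicroRNA genes are transcribed by RNA polymerase II into capped primary transcripts. In the nucleus DCL1, with HYL1 and SERRATE, cuts the hairpin out of them, and the microRNA is then methylated by HEN1 and loaded into AGO1. Cutting consumes the primary transcript. Many plant families target transcription factors of leaf, flower and hormone programmes. The series compared what MTA-GFP captured with the input and with a capture from plants without tagged MTA.

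The targeted gene matched the labels. MTA (AT4G10760) had 12860 reads in the MTA-GFP IP and 2291 in the MTA-GFP input, against 31 in the control IP and 64 in the control input. The 5 leaf markers summed to between 12709 and 52929 reads in a library. The 3 flower markers summed to between 1 and 7 reads, and of the 3 root markers only PRP3 had a read, 1 in the MTA-GFP IP. The libraries held between 36098699 and 45198238 reads, but messenger RNA of nuclear genes made up only 8.433% of the MTA-GFP IP, 2.302% of the MTA-GFP input, 2.114% of the control IP and 4.306% of the control input. Levels are therefore given mainly as reads divided by a library factor (the trimmed mean of M-values, TMM, over 15669 loci), which sets the bulk of nuclear loci to a ratio near 1. The factors were 2.37 for the MTA-GFP IP, 0.641 for the MTA-GFP input, 0.581 for the control IP and 1.13 for the control input.

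Primary transcripts were rare in all 4 libraries and were most often read in the MTA-GFP IP. The 53 loci together had 680 reads in the MTA-GFP IP, 129 in the MTA-GFP input, 149 in the control IP and 196 in the control input. Per 1000000 reads of the library (RPM) this was 18.84 in the MTA-GFP IP (exact binomial 95% interval 17.45 to 20.31). The value was 2.935 in the MTA-GFP input (2.451 to 3.488). It was 3.297 in the control IP (2.789 to 3.87) and 4.899 in the control input (4.237 to 5.634). The MTA-GFP IP thus supplied 58.9% of all 1154 reads of the class. Set against messenger RNA, which also took a larger share of that library, the spread was smaller: 22.34 reads per 100000 messenger RNA reads in the MTA-GFP IP, 12.75 in the MTA-GFP input, 15.59 in the control IP and 11.38 in the control input.

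At least 1 read fell on 44 of the 53 loci. The MTA-GFP IP had reads on 40 loci, the MTA-GFP input on 27, the control IP on 29 and the control input on 31. Thinned to the 129 reads of the shallowest library, the expected numbers were 29.4 in the MTA-GFP IP, 26.9 in the MTA-GFP input, 28.1 in the control IP and 28 in the control input, so the number of loci seen followed the number of reads. The 9 loci without a read were MIR157B, MIR164C, MIR169F, MIR169H, MIR399A, MIR399B, MIR399D, MIR823 and MIR829. At these depths a count of 0 allows up to 3 reads, which is 0.0831 RPM in the MTA-GFP IP, 0.0683 in the MTA-GFP input, 0.0664 in the control IP and 0.075 in the control input. The 20 loci with at least 20 reads over the 4 libraries held 87.2% of the class and are the ones described singly. The 24 loci with 1 to 19 reads shared 147 reads, and 5 loci were read in the MTA-GFP IP alone.

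Summed over the class and scaled by the library factors, the IP of each line held about equally more primary transcript than its own input. Scaled reads were 287.2 in the MTA-GFP IP and 201.4 in the MTA-GFP input, a ratio of 1.43 (95% interval 1.18 to 1.74). In the control line they were 256.4 in the IP and 172.8 in the input, a ratio of 1.48 (1.19 to 1.85). The double ratio, which divides the MTA-GFP enrichment by that of the control line, was 0.961 (0.724 to 1.28). On this scale the summed class was not detectably more enriched with MTA-GFP than in the control capture. Other scales differed: the double ratio was 1.40 (1.05 to 1.86) on nuclear-encoded reads and 9.49 (7.15 to 12.6) on the share of all reads, both intervals above 1. Between the lines, the ratio of the IPs (MTA-GFP over control) was 1.12 (0.937 to 1.35) and that of the inputs 1.17 (0.926 to 1.46). In bulk tissue, fewer cells that make a transcript and less of it in each cell cannot be told apart.

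The summed class rests in part on 1 locus and on the scale. Without MIR775, the locus with the most reads, the MTA-GFP IP stood 1.87-fold over its input (1.51 to 2.36) and the control IP 1.43-fold over its own (1.14 to 1.80), with a double ratio of 1.31 (0.961 to 1.79). On the share of all reads the MTA-GFP ratio was 6.40 and the control ratio turned to 0.674. That scale moves every nuclear locus by 2.17 on the log2 scale in the MTA-GFP line and by -1.14 in the control line.

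**Figure D1:**
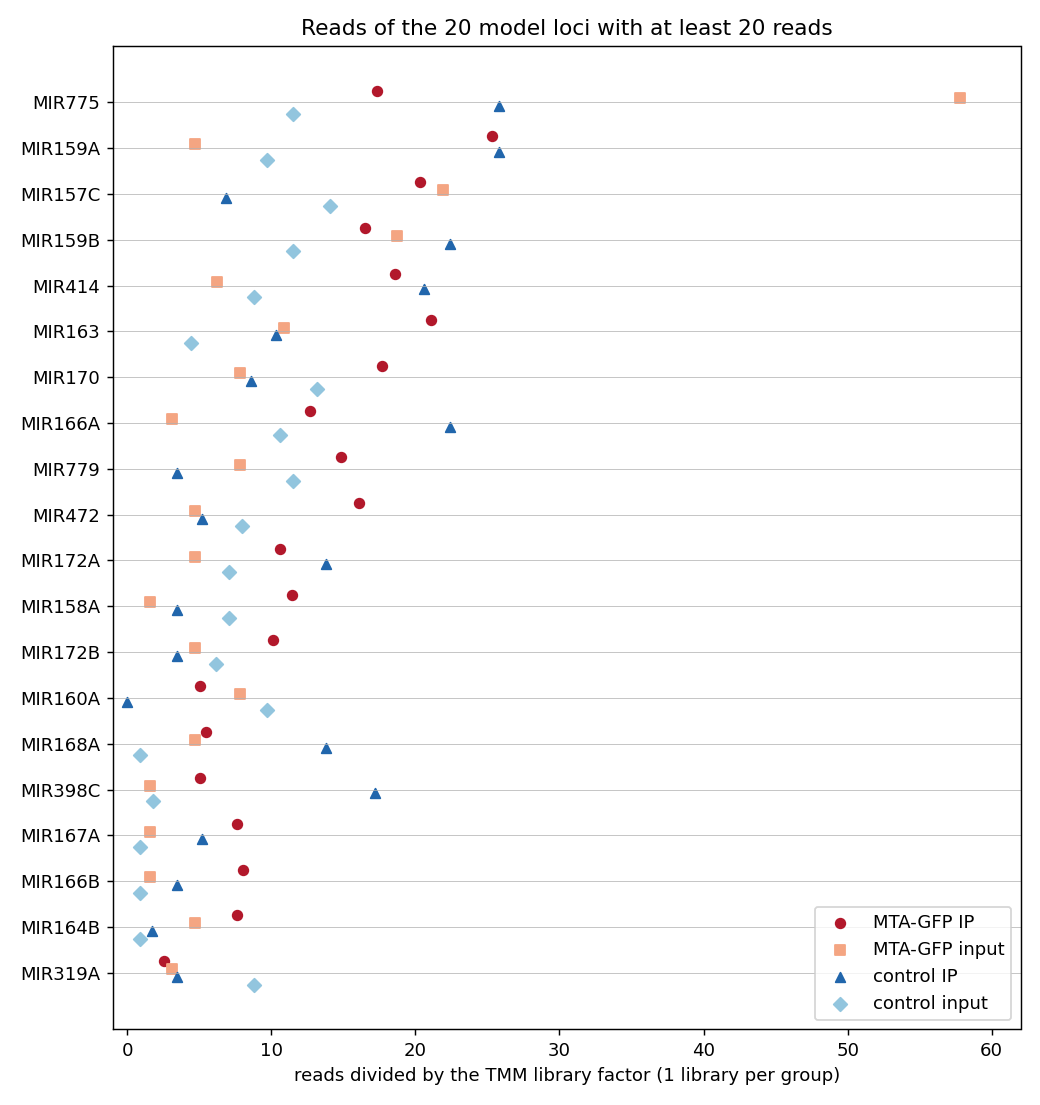
Reads of each of the 20 model loci with at least 20 reads, divided by the TMM library factor (x axis), with 1 point for each library: MTA-GFP IP, MTA-GFP input, control IP and control input. MIR775 stands alone at 57.8 scaled reads in the MTA-GFP input, while no other point passes the 25.8 of MIR159A in the control IP.

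Relative to messenger RNA the class was over-represented in both captures. The odds of a primary transcript read against a messenger RNA read were 1.75 times higher in the MTA-GFP IP than its input (1.45 to 2.11) and 1.37 times higher in the control IP than its input (1.11 to 1.70), and the double ratio of these odds was 1.28 (0.962 to 1.70). The 272 precursor loci without a model gave another comparison. Of their reads, most lay on MIR4228 and MIR5642a, so these were set aside, leaving 297 reads in the MTA-GFP IP, 92 in the MTA-GFP input, 102 in the control IP and 122 in the control input. Against these 270 loci the modelled class was 1.63 times over-represented in the MTA-GFP IP over its input (1.21 to 2.20). In the control capture this odds ratio was 0.909 (0.648 to 1.28), and the double ratio was 1.80 (1.14 to 2.82). With both high loci kept in, the first 2 odds ratios were 0.379 and 0.0995 and the double ratio was 3.81.

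MIR775 (AT1G78206, chromosome 1), whose microRNA targets a galactosyltransferase transcript, took a different place in 1 library. It had 41 reads in the MTA-GFP IP, 37 in the MTA-GFP input, 15 in the control IP and 13 in the control input. It made up 28.7% of the class in the MTA-GFP input (exact binomial 95% interval 21.1 to 37.3), against 6.03% in the MTA-GFP IP, 10.1% in the control IP and 6.63% in the control input. The MTA-GFP input was therefore the library that stood apart. After scaling, the MTA-GFP input exceeded the control input 4.87-fold (2.62 to 10.3), and the MTA-GFP IP over its input was 0.306 (0.188 to 0.481). The double ratio was 0.139 (0.0593 to 0.326), while the 2 IPs did not differ beyond counting error, at 0.677 (0.364 to 1.31). Its share within the class does not depend on the library factor, and the odds of a MIR775 read against the other 52 loci were 0.160 in the MTA-GFP IP over its input (0.0946 to 0.271). On the share of all reads the fold itself turned to 1.34, and the double ratio to 1.32.

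**Figure D2:**
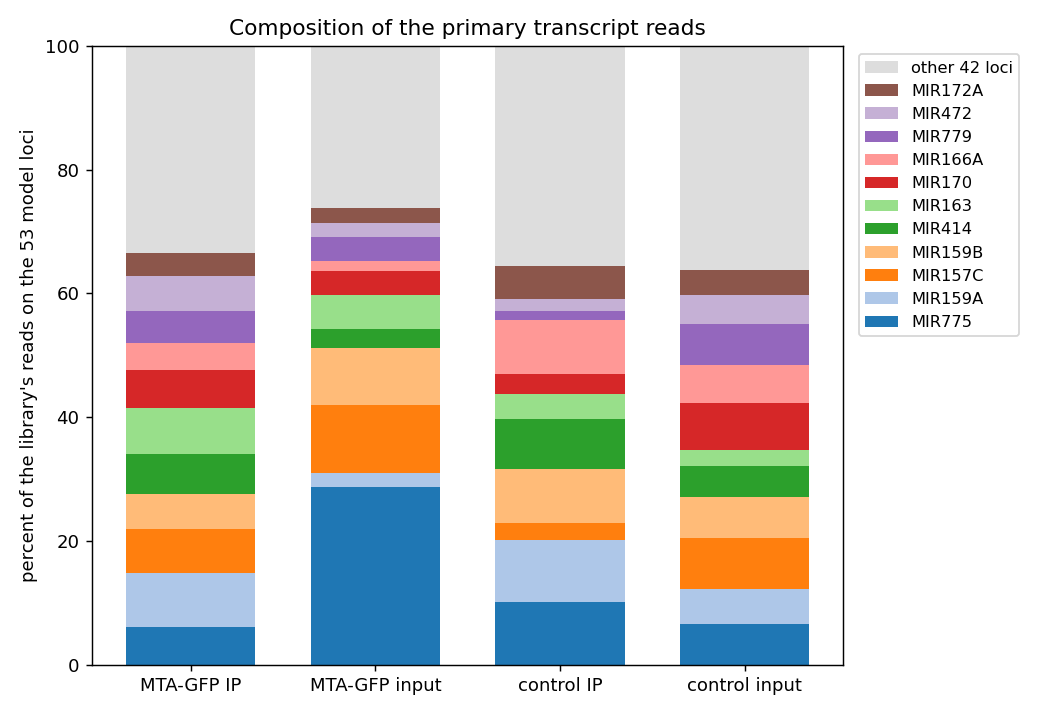
Percent of each library's primary transcript reads (y axis) held by the 11 loci with at least 40 reads and by the other 42 loci together, for the MTA-GFP IP, MTA-GFP input, control IP and control input. MIR775 fills 28.7% of the MTA-GFP input column and between 6.03% and 10.1% of the others, and MIR159A is narrowest in the MTA-GFP input at 2.33%.

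Only 11 of the 53 loci reached the 40 reads over the 4 libraries at which loci across the transcriptome were compared, and most did so through the MTA-GFP IP, so these counts describe the 11 and not the class. A locus counted as higher or lower when its ratio was at least 2-fold and its interval left out 1. In the MTA-GFP IP over its input 4 were higher (MIR159A, MIR166A, MIR414, MIR472) and 1 was lower (MIR775). Among all 15669 loci the same rule called 7.12% higher and 8.4% lower, and among the 5037 loci of 40 to 119 reads 11.2% higher and 7.64% lower. The median log2 ratio of the 11 was 1.09, against -0.0339 over all loci and 0.149 over the loci of 40 to 119 reads. In the control IP over its input 1 was higher (MIR159A) and 0 were lower, where all loci gave 9.18% and 12.4% and loci of 40 to 119 reads 9.67% and 11.3%. The median of the 11 was 0.935 there, and -0.0132 over all loci.

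The double ratio called 1 of the 11 higher (MIR779) and 1 lower (MIR775), near the background of 8.59% and 8.9% over all loci and 9.37% and 6.61% over those of 40 to 119 reads. Its median was 0.817 on the log2 scale, against -0.00825 over all loci and 0.209 over those of 40 to 119 reads. Between the IPs 2 were higher in the MTA-GFP IP (MIR157C and MIR779) and 0 lower, against 5.11% and 4.2% of all loci and 8.81% and 5.82% of those of 40 to 119 reads. Between the inputs 1 was higher in MTA-GFP (MIR775) and 0 lower, against 7.02% and 6.8% of all loci and 6.91% and 8.06% of those of 40 to 119 reads. Between the IPs the median log2 ratio was -0.0258, against -0.00732 over all loci and 0.16 over those of 40 to 119 reads. For the inputs it was -0.526, against -0.00536 and -0.0475 over the same sets. These ratios share libraries, so they are not independent of each other. Of the 20 loci with at least 20 reads, 15 had more scaled reads in the MTA-GFP IP than its input and 12 had more in the control IP than its input, 10 of them in both. The share of all loci that did so is not given here. Several of the 20 reached the minimum through the MTA-GFP IP, such as MIR166B with 19 of its 23 reads there, so these counts are not comparable between captures.

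Loci of the families that guide leaf and flower development carried 592 of the 1154 reads of the class. The MIR159 family, which represses GAMYB-like MYB factors, was the largest with 99 reads in the MTA-GFP IP, 15 in the MTA-GFP input, 28 in the control IP and 24 in the control input. Its IP over input was 1.77 (1.03 to 3.31) in the MTA-GFP line and 2.25 (1.27 to 4.10) in the control line, so it was higher in the control capture by the size rule and its double ratio was 0.787 (0.368 to 1.68).

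The members of this family, MIR159A and MIR159B, encode nearly the same microRNA but did not behave alike in the MTA-GFP line. MIR159A (AT1G73687, chromosome 1) had 60 reads in the MTA-GFP IP, 3 in the MTA-GFP input, 15 in the control IP and 11 in the control input. It was 4.99-fold higher in the MTA-GFP IP than its input (1.77 to 27.0) and 2.58-fold higher in the control IP than its input (1.14 to 6.41), with a double ratio of 1.93 (0.516 to 7.24). MIR159B (AT1G18075, chromosome 1) had 39 reads in the MTA-GFP IP, 12 in the MTA-GFP input, 13 in the control IP and 13 in the control input. Its ratios were 0.883 (0.451 to 1.85) and 1.91 (0.834 to 4.57). Set directly against each other, MIR159A over MIR159B had odds 6.06 times higher in the MTA-GFP IP than its input (1.5 to 35.6) and 1.36 times higher in the control IP than its input (0.4 to 4.68). The division of reads between similar entries was Salmon's, and its part in this difference was not tested.

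The MIR166 family, which restricts the HD-ZIP III factors that set the upper side of the leaf, had 49 reads in the MTA-GFP IP, 3 in the MTA-GFP input, 15 in the control IP and 13 in the control input. It was 4.09-fold higher in the MTA-GFP IP than its input (1.43 to 22.2). In the control line the ratio was 2.20 with an interval that reached 1 (1.0 to 5.14), and the double ratio was 1.86 (0.503 to 6.87). MIR166A (AT2G46685) gave most of this, with 30 reads in the MTA-GFP IP, 2 in the MTA-GFP input, 13 in the control IP and 12 in the control input, a ratio of 3.64 in the MTA-GFP line (1.03 to 35.1). MIR166B (AT3G61897) had 19 reads in the MTA-GFP IP and no more than 2 in any other library.

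The MIR172 family, which represses AP2-like floral regulators, also passed the rule in the MTA-GFP line. It had 53 reads in the MTA-GFP IP, 6 in the MTA-GFP input, 11 in the control IP and 15 in the control input, and its ratios were 2.32 (1.03 to 6.81) in the MTA-GFP line and 1.42 (0.595 to 3.34) in the control line. MIR172A (AT2G28056) had 25, 3, 8 and 8 reads and MIR172B (AT5G04275) 24, 3, 2 and 7 reads in the MTA-GFP IP, MTA-GFP input, control IP and control input. The odds of the pair in the MTA-GFP line were 1.04, with an interval from 0.127 to 8.56 that allows a large difference either way, and their difference in the control line, 3.33, had an interval from 0.436 to 42.7.

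The MIR157 family, which with MIR156 holds back the SPL factors of the adult phase, showed no detectable enrichment in either capture. MIR157C (AT3G18217) supplied nearly all of its reads, with 48 in the MTA-GFP IP, 14 in the MTA-GFP input, 4 in the control IP and 16 in the control input. The IP over input was 0.929 (0.503 to 1.82) in the MTA-GFP line and 0.506 (0.119 to 1.51) in the control line. The MTA-GFP IP exceeded the control IP 2.81-fold (1.08 to 11.2), while the double ratio of 1.84 had an interval from 0.556 to 6.08. MIR156C (AT4G31877), a locus of 17 reads, went the other way between the IPs. It had 7 reads in the MTA-GFP IP, 1 in the MTA-GFP input, 9 in the control IP and 0 in the control input, so the control IP was at least 5.86-fold higher than its input (against 3 reads there) and the ratio of the IPs, MTA-GFP over control, was 0.216 (0.0604 to 0.576). Per library total its levels in the IPs were close, at 0.194 RPM in the MTA-GFP IP and 0.199 RPM in the control IP.

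Both MIR170 and MIR171 target GRAS factors that keep meristems active. MIR170 (AT5G66045) had 42 reads in the MTA-GFP IP, 5 in the MTA-GFP input, 5 in the control IP and 15 in the control input, and the 3 MIR171 loci had 14, 1, 1 and 7 reads in the same libraries. Their double ratios were 3.31 (0.887 to 12.4) and 9.35 (0.824 to 106), and neither interval left out 1. MIR164B (AT5G01747), of the family that limits CUC boundary factors, had 18 reads in the MTA-GFP IP and 3, 1 and 1 in the MTA-GFP input, control IP and control input, with no ratio past the rule.

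The MIR319 family, which represses TCP factors of leaf growth, differed between the lines in its pooled value. Its 3 loci had 14 reads in the MTA-GFP IP, 2 in the MTA-GFP input, 2 in the control IP and 17 in the control input. After scaling these were 5.91, 3.12, 3.44 and 15.0 in the same order, highest in the control input. The IP over input was 1.77 (0.435 to 17.2) in the MTA-GFP line and 0.255 (0.0257 to 0.968) in the control line, with a double ratio of 6.96 (1.06 to 45.9). The MTA-GFP input over the control input was 0.234 (0.0233 to 0.878). MIR319A (AT4G23713) alone, at 6, 2, 2 and 10 reads in the same order of libraries, had a double ratio of 1.98 (0.266 to 14.7).

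Taken as 1 group, the 22 loci of these developmental families were 1.88-fold higher in the MTA-GFP IP than its input (1.40 to 2.59) and 1.32-fold higher in the control IP than its input (0.980 to 1.78). The double ratio was 1.42 (0.944 to 2.15), and without MIR159A it was 1.40 (0.907 to 2.18).

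Families of the auxin response were few in reads. MIR160, which targets auxin response factors of the repressing kind, had 13 reads in the MTA-GFP IP, 5 in the MTA-GFP input, 0 in the control IP and 14 in the control input. With 3 reads in place of the 0 the control IP was 2.39-fold lower than its input. The upper limit of the ratio was 0.589. MIR160A (AT2G39175) held most of the family's reads, with 12, 5, 0 and 11 in the same order. Computed in the same way, it was 1.88-fold lower in the control IP than its input, and the upper limit of the ratio was 0.778. Its MTA-GFP IP over input was 0.671 (0.213 to 2.35). MIR167A (AT3G22886), of the family that targets activating auxin response factors, had 18 reads in the MTA-GFP IP, 1 in the MTA-GFP input, 3 in the control IP and 1 in the control input, and its ratios of 3.93 in the MTA-GFP line and 4.10 in the control line had intervals that held 1.

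Of the loci that feed back on the small RNA pathway, MIR168A passed the rule in the control capture. The MIR168 family, which targets AGO1, had 24 reads in the MTA-GFP IP, 3 in the MTA-GFP input, 11 in the control IP and 2 in the control input. The control IP was 8.59-fold higher than its input (2.34 to 99.7), and in the MTA-GFP line the ratio was 2.05 (0.657 to 11.2). MIR168A (AT4G19395), at 13, 3, 8 and 1 reads in the same order, was 10.3-fold higher in the control IP than its input (2.09 to 693) and had a double ratio of 0.112 (0.0138 to 0.911). The 5 loci of this group, which also include MIR173, MIR390B and MIR403, gave 2.08 (0.768 to 8.43) in the MTA-GFP line and 10.1 (2.87 to 116) in the control line. Their control input held only 2 reads in all, and MIR168 supplied 11 of the 13 reads in their control IP.

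MIR398, which targets copper superoxide dismutase messages and responds to copper supply, had 19 reads in the MTA-GFP IP, 6 in the MTA-GFP input, 10 in the control IP and 2 in the control input. It was 7.83-fold higher in the control IP than its input (2.08 to 91.6), with a ratio of 0.864 in the MTA-GFP line (0.329 to 2.62). The double ratio was 0.110 (0.0214 to 0.569). Both loci were read in the MTA-GFP libraries, but only MIR398C in the control libraries. MIR398C (AT5G14565) had 12, 1, 10 and 2 reads in the MTA-GFP IP, MTA-GFP input, control IP and control input, and its MTA-GFP IP over control IP was 0.315 (0.117 to 0.761), which turned to 1.48 on the share of all reads. MIR398B (AT5G14545) had 7 and 5 reads in the MTA-GFP IP and input and 0 in both control libraries, so that its MTA-GFP input was at least 2.95-fold higher than the control input. The hairpin of MIR398B overlaps the protein-coding gene AT5G14550, which had 137, 50, 64 and 76 reads in the same order, and the part of its reads in the MIR398B value was not tested. The other nutrient and stress families, MIR169, MIR395 and MIR399, had 2 reads between them, both on MIR395F in the MTA-GFP IP.

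Among the remaining families, several of them known from few species, MIR163, MIR414, MIR472, MIR779 and MIR158A had most of their reads in the MTA-GFP IP. The MTA-GFP IP held 58.9% of all reads of the class, so this does not by itself set them apart. MIR158A (AT3G10745) had 27 reads there, 1 in the MTA-GFP input, 2 in the control IP and 8 in the control input. It was 5.78-fold higher in the MTA-GFP IP than its input (1.20 to 299), the control ratio was 0.522 (0.0505 to 2.45), and the double ratio was 11.1 (1.27 to 96.5). The single read in the MTA-GFP input makes the upper ends of these intervals very wide.

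MIR779 (AT2G22496) had 35 reads in the MTA-GFP IP, 5 in the MTA-GFP input, 2 in the control IP and 13 in the control input. Its MTA-GFP ratio was 1.84 (0.739 to 6.19) and its control ratio 0.330 (0.0329 to 1.33). The double ratio of 5.58 (1.10 to 28.2) and the MTA-GFP IP over control IP of 3.88 (1.10 to 36.9) passed the rule. On the deposited TPM the double ratio of this locus turned to 0.128 and its MTA-GFP IP over control IP to 0.848, because TPM weights a read on its precursor of 6.855 effective bases far above one on its model of 789.

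MIR472 (AT1G12294), whose microRNA targets messages of disease resistance genes, had 38 reads in the MTA-GFP IP, 3 in the MTA-GFP input, 3 in the control IP and 9 in the control input. It was 3.19-fold higher in the MTA-GFP IP than its input (1.09 to 17.4), with a double ratio of 4.76 (0.920 to 24.6). Its model is the longest of the class at 4976 bases, and its hairpin overlaps the protein-coding gene AT1G12290, which had 211, 40, 83 and 108 reads in the MTA-GFP IP, MTA-GFP input, control IP and control input. The part of that gene's reads in the MIR472 value was not tested.

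MIR414 (AT1G67195) had 44 reads in the MTA-GFP IP, 4 in the MTA-GFP input, 12 in the control IP and 10 in the control input. It was 2.83-fold higher in the MTA-GFP IP than its input (1.08 to 11.4), the control ratio was 2.27 (0.928 to 6.05), and the double ratio was 1.25 (0.350 to 4.44). MIR163 (AT1G66725), which targets methyltransferase messages of secondary metabolism, had 50 reads in the MTA-GFP IP, 7 in the MTA-GFP input, 6 in the control IP and 5 in the control input. Its ratios of 1.89 and 2.21 in the MTA-GFP and control lines had intervals that held 1, and its double ratio was 0.858 (0.218 to 3.38). Without MIR775, the 11 other loci of these remaining families gave 2.37 (1.55 to 3.85) in the MTA-GFP line and 1.18 (0.717 to 1.91) in the control line, a double ratio of 2.01 (1.08 to 3.76). With it the double ratio was 0.786 (0.488 to 1.27). Only MIR775 was taken out. The loci of at least 20 reads with the highest double ratios here, MIR158A at 11.1, MIR779 at 5.58 and MIR472 at 4.76, stayed in. The value without them is not given here.

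**Figure D3:**
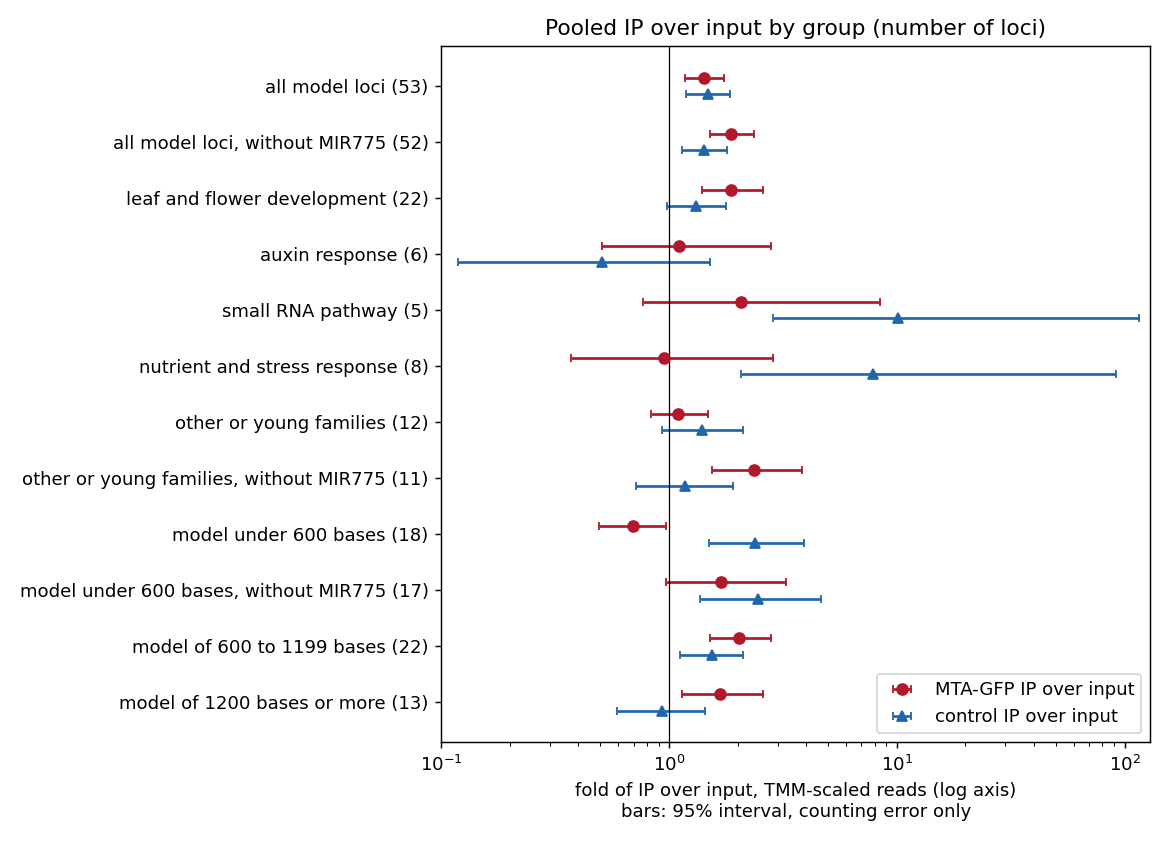
Pooled IP over input of TMM-scaled reads (x axis, log scale) for the whole class, the role groups and the classes of model length, with the number of loci in parentheses, points for the MTA-GFP line and for the control line, and 95% intervals for counting error as bars. The small RNA pathway and nutrient and stress groups lie at 2.08 and 0.95 in the MTA-GFP line and far to the right, at 10.1 and 7.83, in the control line, and removing MIR775 moves the group under 600 bases in the MTA-GFP line to 1.70, against 0.692 with it.

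By family, 18 had at least 20 reads, with 33 loci between them. In the MTA-GFP IP over its input 5 of the 18 passed the rule upward (MIR172, MIR166, MIR414, MIR472, MIR158) and 1 downward (MIR775). In the control IP over its input 3 passed upward (MIR159, MIR168, MIR398) and 2 downward (MIR319, MIR160). Over all 15669 loci the same rule called 7.12% higher and 8.4% lower in the MTA-GFP line and 9.18% and 12.4% in the control line. Among loci of 40 to 119 reads it called 11.2% and 7.64% in the MTA-GFP line and 9.67% and 11.3% in the control line. These shares are for single loci of at least 40 reads and not for pooled families. Families called in 1 capture were not tested for a difference between captures except by the double ratio. The double ratio was called higher for MIR158, MIR319 and MIR779 and lower for MIR775 and MIR398. Among all single loci 8.59% were higher and 8.9% lower in this ratio, and among those of 40 to 119 reads 9.37% and 6.61%. The families were named for reads over all 4 libraries, most of them from the MTA-GFP IP.

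**Figure D4:**
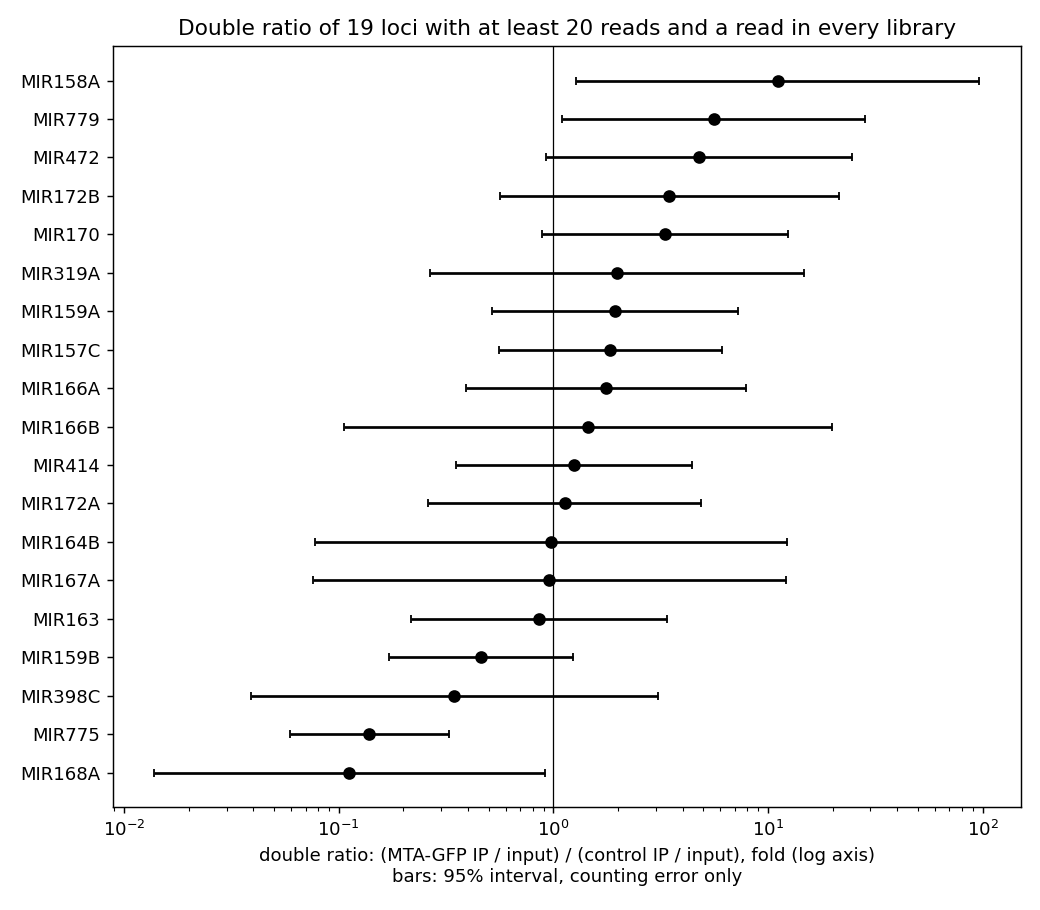
Double ratio (x axis, log scale), the MTA-GFP IP over input divided by the control IP over input, for the 19 loci with at least 20 reads in all and a read in every library, with 95% intervals for counting error as bars. Only MIR158A and MIR779 lie to the right of 1 with their whole interval, and only MIR775 and MIR168A to the left. MIR775 turned to 1.32 on the share of all reads and MIR779 to 0.128 on the deposited TPM.

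Ratios were also pooled by model length. Models ranged from 319 to 4976 bases with a median of 817. The 13 loci of 1200 bases or more had 181 reads in the MTA-GFP IP, 29 in the MTA-GFP input, 32 in the control IP and 67 in the control input, with a double ratio of 1.80 (1.02 to 3.19). MIR472, which overlaps a protein-coding gene, is among them, and the value without it is not given here. The 22 loci of 600 to 1199 bases gave 2.03 (1.51 to 2.80) in the MTA-GFP line and 1.54 (1.12 to 2.11) in the control line, with a double ratio of 1.32 (0.865 to 2.02). The 18 shorter ones gave a double ratio of 0.290 (0.167 to 0.503), which without MIR775 was 0.690 (0.313 to 1.52). The control IP over input of these shorter loci was 2.39 (1.5 to 3.91), and 2.47 (1.37 to 4.67) without MIR775. Scaled reads were also divided by the effective length of the model. Among the 20 loci with at least 20 reads, MIR775 came first at a mean of 80.7 per kilobase over the 4 libraries. MIR159A followed at 29.3, MIR414 at 23.5 and MIR398C at 23.4. MIR393B lay at 26.4 on only 7 reads in all.

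Most reads were assigned to the model entries. A model can contain its hairpin, so this split is by entry and not by position. The precursors, from 85 to 359 bases long with a median of 124, held 4.19% of the class' reads in the MTA-GFP IP (exact binomial 95% interval 2.76 to 5.90), 3.19% in the MTA-GFP input (0.858 to 7.81), 4.86% in the control IP (1.91 to 9.44) and 2.88% in the control input (1.13 to 6.54). The 4 intervals overlap, and all lie below the 11.8% that precursors take of the summed entry lengths. That share counts full lengths and is not an expected share of reads. Effective lengths were far smaller for precursors, for MIR775 5.132 of 123 bases, against 348 of 597 for its model. MIR163, with a hairpin of 331 bases, gave 15.3 of the 28.5 precursor reads of the MTA-GFP IP. Without it the share there was 2.09% (1.10 to 3.51). On the deposited TPM the precursors instead held between 58.3% and 60.9% of the class, through their small effective lengths. A read that matches both entries of a locus was divided between them by Salmon.

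Loci of fewer than 20 reads were too thin for single ratios. Those with 1 to 19 reads had a median of 2 reads in the MTA-GFP IP (range 0 to 10), 0 in the MTA-GFP input (0 to 5), 0 in the control IP (0 to 9) and 0 in the control input (0 to 7). Summed, the loci below 20 reads gave 1.42 (0.814 to 2.67) in the MTA-GFP line and 1.55 (0.874 to 2.76) in the control line, with a double ratio of 0.913 (0.427 to 1.95). MIR846 (AT1G61226) was the remaining locus past the size rule, at 2, 4, 2 and 2 reads in the MTA-GFP IP, MTA-GFP input, control IP and control input and a ratio of 0.199 in the MTA-GFP line (0.0122 to 0.944).

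Messenger RNAs of the machinery that processes primary transcripts mostly had more reads than single model loci. They ranged from 55 reads over the 4 libraries for SIC to 36826 for GRP7, and all 25 listed genes were compared. In the MTA-GFP IP over its input, where 7.12% of all loci were higher and 8.4% lower, 1 of the 25 was higher, CPL1, a phosphatase that acts on HYL1, at 2.11 (1.42 to 3.30). The 4 lower ones were SE, the SERRATE zinc finger protein, DDL, a DCL1 partner, CBP20, a cap-binding subunit, and MOS2, an RNA-binding protein that aids processing. In the control IP over its input these 4 were also lower and 0 were higher, against 12.4% and 9.18% of all loci. DDL had 78 reads in the MTA-GFP IP, 88 in the MTA-GFP input, 27 in the control IP and 371 in the control input, ratios of 0.243 (0.175 to 0.329) and 0.143 (0.0924 to 0.210). SE was at 0.496 and 0.440 in the MTA-GFP and control lines. On the share of all reads 23 of the 25 were higher and 0 lower in the MTA-GFP IP over its input. In the control IP over its input 14 were lower. This scale moves every nuclear locus by 2.17 on the log2 scale in the MTA-GFP line and by -1.14 in the control line. The share of all loci called on it is not given here, so these counts are not a result about the list.

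In the double ratio 3 of the 25 were higher and 0 lower: MOS2 at 4.38 (2.34 to 8.20), CBP20 at 2.25 (1.17 to 4.32) and HESO1, which adds uridines to unmethylated small RNAs, at 2.12 (1.06 to 4.23). The background there was 8.59% higher and 8.9% lower, near the list's count of higher genes. Between the IPs 0 of 25 were called in either direction, against 5.11% of all loci higher and 4.2% lower. Between the inputs 2 were lower in MTA-GFP, DDL and MOS2, and 0 higher. The background there was 6.8% lower and 7.02% higher, near the list's count of lower genes. The list's median log2 ratio was -0.0503 for the MTA-GFP IP over its input, -0.0288 for the control IP over its input and 0.00258 for the double ratio, close to the medians over all loci. DCL1, the processing enzyme itself, had 838 reads in the MTA-GFP IP, 359 in the MTA-GFP input, 390 in the control IP and 817 in the control input, with ratios of 0.632 (0.558 to 0.717) and 0.932 (0.824 to 1.05) in the MTA-GFP and control lines, short of the 2-fold rule.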

How the data were processed

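The 4 deposited tables, 1 for each library, hold for each entry an estimated count of reads (NumReads) and a TPM value, per the file headers, which have Salmon's layout. The submitters' processing notes name Salmon, HISAT2, Bowtie, Trimmomatic and the build TAIR10. What each tool did, in which version and with which strand setting is not given in the sources used here. Reads of genes that overlap, or lie antisense to each other, therefore cannot be separated.

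Reads of all entries of a locus were added and rounded. All 53 loci were found in a RefSeq gene table (TAIR10.1), used for symbols, gene types, positions and overlaps. Loci within 10 kilobases of a nuclear ribosomal RNA gene, microRNA loci excepted, were left out of the nuclear-encoded and messenger RNA totals. No microRNA sequences or coordinates are printed, since no sequence table was used here. Reads on entries without a locus, 22.4% to 45.1% of a library, stayed out of the library factors. TMM factors came from edgeR 4.0.16 in R 4.3.3 over nuclear and MIR loci with at least 40 reads. Ratios had 0.5 reads added after scaling. The 95% intervals are conditional exact ones (Clopper-Pearson) for a pair of libraries, and for double ratios they come from Poisson variances of the logs. Where a library had 0 reads and the rule was passed, a fold was computed with 3 reads in place of the 0. This fold leaves out counting error in the other library and is not a minimum. RPM is reads per 1000000 of a library's total. Python 3.11.15 with scipy 1.17.1 and pandas 2.3.3 did the rest. The calculation was tested on simulated counts.

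Every model locus with at least 20 reads, every family with at least 20 reads and every model locus past the size rule is named, and of the processing machinery the members past the rule; DCL1 was added after its values were seen. The members, role groups and lists were chosen with earlier results of these data known. Alternatives were DESeq2 1.42.0 size factors, other library scales, the deposited TPM, 1 read added, other read minimums, model entries alone and loci left out.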

Additional observations from a re-analysis of the deposited data

Results flagged for a closer look

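There were 6 results that differed between the lines in the double ratio of TMM-scaled reads by at least 2-fold with an interval off 1. With 1 library in each group this difference was compared with counting error only, and not tested against the spread between preparations. MIR158A stood highest at 11.1 and rested on 1 read in the MTA-GFP input and 2 in the control IP. The MIR319 family was at 6.96, on 2 reads each in the MTA-GFP input and the control IP. MIR779 was at 5.58, on 2 reads in the control IP. MIR775 was at 0.139, with 37 reads in the MTA-GFP input, the best counted of the 6. MIR168A was at 0.112, on 1 read in the control input, and the MIR398 family at 0.11, on 2 reads in the control input. Among all 15669 loci compared the rule called 8.59% higher and 8.9% lower in this ratio.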

How the results depend on the processing

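No paired analysis was possible because each group has 1 library. Leaving out a library is not possible either. A ratio or share was taken as kept when the alternative lay within the reported 95% interval, a count when it was within 1.5 times. A reversal was counted only for a pooled ratio whose interval left out 1, or a single value past the size rule. By these terms 162 alternatives for the pooled ratios, the counts and the precursor shares were kept, 61 moved and 1 reversed. Among single loci and families 1248 were kept, 91 moved and 5 reversed. The intervals are wide, and 40 of the 1248 differed over 4-fold from the reported value. Another 110 alternatives for values not past the rule lay on the other side of 1, 75 of them on the share of all reads or the deposited TPM. The limits are depth, with 129 primary transcript reads in the MTA-GFP input, and the library scale, since messenger RNA is a small and unequal part of the libraries.

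On the share of all reads the pooled class was 6.4 in the MTA-GFP IP over its input, 0.674 in the control IP over its input (the reversal), 9.49 in the double ratio (7.15 to 12.6), 5.7 between the IPs and 0.6 between the inputs. On nuclear-encoded reads it was 1.96 for the MTA-GFP IP over its input, 1.4 in the double ratio (1.05 to 1.86) and 1.47 between the IPs, and on mRNA reads 1.75, 1.28 and 1.43. On the deposited TPM it was 3.67, 2.32 and 2.74. Without MIR775 it was 1.87, the double ratio 1.31 and the inputs 0.891. Loci of fewer than 40 reads alone, an alternative chosen after seeing the data, gave 1.76 and, between the inputs, 0.862.

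Of the 11 model loci, on the share of all reads 10 were higher and 0 lower in the MTA-GFP IP over its input, 0 higher and 3 lower in the control line, 10 higher and 0 lower in the double ratio, 11 higher between the IPs and 3 lower between the inputs. On nuclear-encoded reads 7 were higher in the MTA-GFP IP over its input, 3 in the double ratio and 5 between the IPs, and on mRNA reads 3 in the double ratio and 5 between the IPs. DESeq2 size factors gave 2 higher in the control line, and model entries alone 1 lower there. With no read minimum, which compares 44 loci in place of 11, 2 were lower in the MTA-GFP line, 4 higher and 1 lower in the control line, 2 higher and 2 lower in the double ratio, 2 lower between the IPs and 2 higher between the inputs. A minimum of 20 reads, which compares 20 loci, gave 3 higher and 1 lower in the control line, 2 higher and 2 lower in the double ratio and 1 lower between the IPs. The share of all loci called at each of these settings is not given, so the counts have no background. On the share of all reads every locus moves by 2.17 on the log2 scale in the MTA-GFP line and by 3.31 in the double ratio.

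Of the 25 processing genes, on the share of all reads 23 were higher and 0 lower in the MTA-GFP IP over its input, 14 lower in the control line, 25 higher in the double ratio, 25 higher between the IPs and 17 lower between the inputs. Nuclear-encoded reads gave 3 higher and 1 lower in the MTA-GFP line, 6 higher in the double ratio and 2 between the IPs, and mRNA reads gave 2, 1, 6 and 2. With no read minimum 2 were higher between the IPs. For these counts too the share of all loci called at the same setting is not given. The precursor share of the MTA-GFP IP was 2.09% without MIR163, chosen after seeing the data.

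Of the single values past the size rule, those that reversed were MIR775 on the share of all reads (1.34 in the MTA-GFP line and 1.32 in the double ratio), MIR779 on the deposited TPM (0.128 in the double ratio and 0.848 between the IPs) and MIR398C between the IPs on the share of all reads (1.48). The share of reads moves every locus alike, by 3.31 on the log2 scale in the double ratio, and mRNA reads by 0.41.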
